A study of Mus musculus with 4 samples.

Results

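Alveolar macrophages clear dust, microbes and surfactant lipid from the air spaces of the lung, and in the mouse they are known for very high Chil3 and Lyz2, for the ribonuclease Ear2, and for genes that take up and store fat. Such cells fill with lipid droplets in diseased lungs, and these foamy macrophages raise the droplet protein Plin2. The genes followed here were taken by symbol, as known alveolar macrophage and lipid-laden macrophage genes, from a table of 17746 gene symbols: Chil3, Lyz2, Lyz1, Ear2, Plin2, Lpl and Fabp4 had values, 7 of 8, and the scavenger receptor gene Marco was not analysed here. All 7 passed the filter on low counts and are among the 16301 genes tested.

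RNA was sequenced from lung tumours of mice carrying floxed Rb1 and Trp53, a model of small cell lung cancer, together with a knocked-in GFP-LC3-RFP-LC3ΔG autophagy reporter that every library shares. Tumours were dissociated, red cells removed, and live cells positive for EpCAM, an epithelial surface protein, and for RFP were divided by GFP into GFP-negative cells (2 libraries) and GFP-positive cells (2 libraries). The labels give no age or strain, do not say how the floxed alleles were deleted, and do not say that libraries came from separate mice, so p-values measure the spread between these libraries alone. The submitters' titles assign high autophagic flux to GFP-positive cells and their design text assigns it to GFP-negative cells, so groups are called by GFP and no flux is given to either.

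Total counts lay between 51994432 and 73997175. GFP-positive replicate 1 stood apart with counts for 6063 symbols, against 15710 to 17617 in the other libraries. Of all 17746 symbols, 129 to 2036 had 0 counts in the other libraries and 11683 in GFP-positive replicate 1. That library also had the highest sum of 7 hepatocyte markers, which came to 175 and 936 CPM in GFP-negative replicates 1 and 2 and to 32941 and 1691 CPM in GFP-positive replicates 1 and 2. CPM are edgeR's library-scaled counts with TMM factors, and pairs of values below are replicates 1 and 2 in that order. The neuroendocrine tumour markers summed to 6902 and 4156 CPM in GFP-negative and 4871 and 2035 CPM in GFP-positive libraries, with 5 of the 19 at 0 counts in GFP-positive replicate 1. Epcam itself was read throughout, with 255 and 88.9 CPM in GFP-negative and 94.0 and 65.9 CPM in GFP-positive libraries. The 29 macrophage and monocyte markers summed to 938 and 19071 CPM in GFP-negative and 47145 and 56297 CPM in GFP-positive libraries. In sorted pools like these, fewer cells of a type and less RNA per cell cannot be told apart.

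Chil3 and Lyz2 fell in GFP-negative cells, and they were the only 2 of the 7 genes to pass the test across all genes. Of all 16301 tested genes 0.092% were called lower, 0.00613% higher and 0.0982% in either direction. All fitted changes are GFP-negative minus GFP-positive. The median over all tested genes was 0.91 in the fit of all 4 libraries, 0.29 without GFP-positive replicate 1 and 9.95 without GFP-positive replicate 2. It was -0.06 when only the 5492 genes with counts in all 4 libraries were fitted. With 1 library left out, a group is a single library that is assumed to vary like the other group, and without GFP-positive replicate 2 the fit called 7601 of 16804 genes. Chil3, also called Ym1, is a secreted chitinase-like protein without chitin-cleaving activity. Lyz2 is the lysozyme of macrophages and neutrophils, which cuts bacterial cell walls, and mouse alveolar type 2 cells make it too. The start regions of both genes and of 2 more, Lyz1 and Ear2, are shown. Among the genes with values, these were the regions in which motif matches were found. RefSeq windows were also read for Plin2 and Marco. Each line gives the stretch from 250 to 51 bases before the RefSeq start (GRCm38.p6, the assembly behind mm10), read on the gene's strand, with capitals for motif matches.
Chil3: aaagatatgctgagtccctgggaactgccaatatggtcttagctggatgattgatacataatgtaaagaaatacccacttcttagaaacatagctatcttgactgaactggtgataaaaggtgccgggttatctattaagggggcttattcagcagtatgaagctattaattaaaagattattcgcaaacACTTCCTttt
Lyz2: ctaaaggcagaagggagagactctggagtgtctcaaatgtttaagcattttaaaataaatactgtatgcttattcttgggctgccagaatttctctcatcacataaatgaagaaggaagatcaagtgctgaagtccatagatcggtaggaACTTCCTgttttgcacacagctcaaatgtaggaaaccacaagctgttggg
Lyz1: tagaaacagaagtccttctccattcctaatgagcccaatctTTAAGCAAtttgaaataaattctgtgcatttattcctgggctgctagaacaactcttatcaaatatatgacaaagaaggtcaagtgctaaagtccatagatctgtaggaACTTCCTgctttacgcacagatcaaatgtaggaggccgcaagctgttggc
Ear2: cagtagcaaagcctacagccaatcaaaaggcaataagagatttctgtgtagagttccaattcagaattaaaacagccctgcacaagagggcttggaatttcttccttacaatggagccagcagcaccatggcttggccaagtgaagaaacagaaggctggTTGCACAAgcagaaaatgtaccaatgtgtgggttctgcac
These windows are chr3:106167615-106167814 (minus strand), chr10:117282323-117282522 (minus), chr10:117292919-117293118 (minus) and chr14:44102404-44102603 (plus). On both strands the ETS core AGGAAGT, the kind of site bound by the myeloid factor PU.1, was found once each in the Chil3, Lyz2 and Lyz1 windows, where it reads as the capitals ACTTCCT. It starts 60 bases before the Chil3 start and 100 before both lysozyme starts. It was chosen after the sequences were seen, and 5.66% of 32851 promoter windows of the same length hold it. Another PU.1 form, GAGGAA, which can overlap it by 5 letters, was in the Marco window, in none of the 4 shown and in 18.76% of all. A C/EBP form, TTGCNNAA, matched in Lyz1 and Ear2 and in 8.11% of all windows, and a PPAR-RXR element (AGGTCA repeated with 1 base between) in none of the 4 and in 0.02% of all. The Plin2 window held none of these motifs. Such matches describe letters and are not evidence of binding.

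Chil3 had 186 and 1207 CPM in GFP-negative libraries and 42910.45 and 6561 CPM in GFP-positive libraries. Its raw counts were 21153 and 80365 in GFP-negative and 1610046 and 418219 in GFP-positive libraries. The groups did not overlap, and within each group the replicates stood about as far apart as one another, 6.48-fold in GFP-negative and 6.54-fold in GFP-positive libraries, in opposite order. The edgeR log2 change was -5.15 ± 0.54 (SE, n = 2 per group, edgeR quasi-likelihood adjusted p = 1.8e-17). Lyz2 had 480.2 and 8635 CPM in GFP-negative and 43154 and 19819 CPM in GFP-positive libraries. GFP-negative replicate 1 was the low library for Lyz2, 18.0-fold below replicate 2, and the groups did not overlap. Its log2 change was -2.79 ± 0.43 (SE, n = 2 per group, edgeR adjusted p = 2.22e-07).

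Those standard errors borrow their spread from other abundant genes. Taken from the libraries alone, the difference in mean log2 CPM was -5.14 ± 1.91 for Chil3 and -3.84 ± 2.16 for Lyz2 (SE from 2 libraries per group, no test). An exact two-sided permutation test of 2 against 2 cannot go below p = 0.333. Among same-numbered libraries, GFP-negative minus GFP-positive was -7.85 for replicate 1 and -2.44 for replicate 2 on the log2 scale for Chil3, and -6.49 and -1.20 for Lyz2. Without GFP-positive replicate 1 the changes were -3.24 and -2.12 and neither gene was called (edgeR adjusted p = 1.0 for both). Without GFP-positive replicate 2 they were -5.95 and -3.25, again not called (edgeR adjusted p = 0.0501 and 0.226). Both were called without GFP-negative replicate 1, at -4.36 and -1.87, and without GFP-negative replicate 2, at -6.95 and -5.96.

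Together the 2 genes made up a large part of some libraries. Chil3 plus Lyz2 took 0.102% and 0.940% of all counts in GFP-negative libraries and 6.21% and 2.49% in GFP-positive libraries. By the authors' deposited FPKM, which divide by gene length, Lyz2 stood at 493 and 5454 in GFP-negative and at 21178 and 12209 in GFP-positive libraries. That placed Lyz2 at rank 71 and 6 of all symbols in GFP-negative and rank 2 and 3 in GFP-positive libraries. Chil3 stood at 154 and 615 FPKM in GFP-negative and 16981 and 3259 FPKM in GFP-positive libraries, with ranks of 353 and 122 against 4 and 17.

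**Figure D1:**
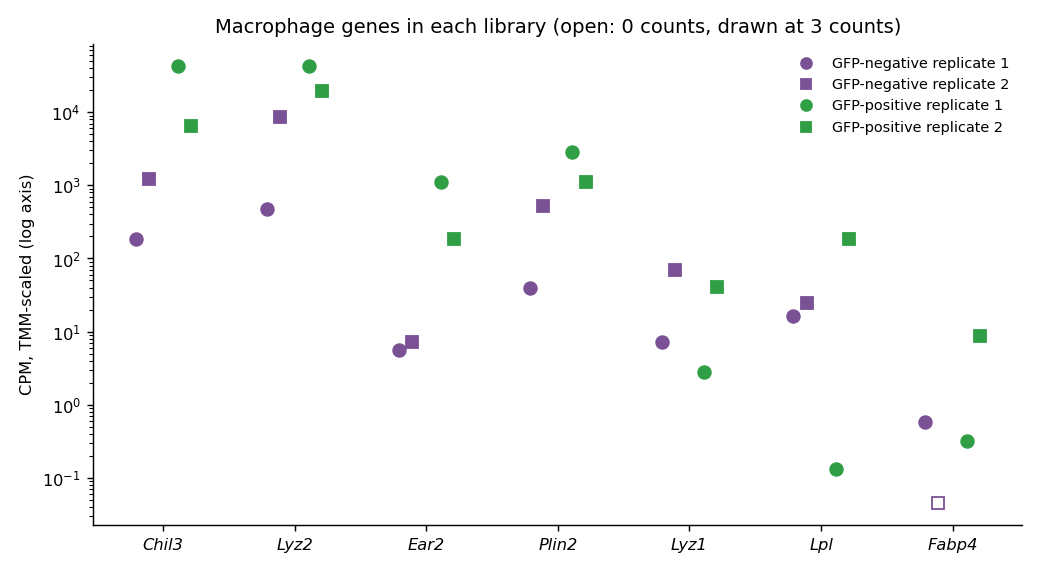
CPM (TMM-scaled, log axis) of each gene in each library, GFP-negative left of GFP-positive within a gene, circles for replicate 1 and squares for replicate 2. Chil3, Lyz2, Ear2 and Plin2 are higher in both GFP-positive libraries, while Lyz1, Lpl and Fabp4 overlap, and GFP-positive replicate 1 is the lowest library for Lyz1 (2.83 CPM) and Lpl (0.133 CPM).

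Ear2 and Plin2 had the same order of groups as Chil3 and Lyz2, without passing the test. Ear2 encodes an eosinophil-associated ribonuclease, an RNA-cleaving defence protein that resting alveolar macrophages of the mouse also make. It had 5.52 and 7.12 CPM in GFP-negative and 1126 and 186 CPM in GFP-positive libraries. The GFP-negative pair lay close together, and the fitted log2 change of -6.70 ± 2.21 is the largest of the 7 in size (SE, n = 2 per group, edgeR adjusted p = 1.0, unadjusted p = 0.00248). Without GFP-positive replicate 1 it was -4.88, and without GFP-positive replicate 2, in the fit that called 7601 genes, it was -7.48 (edgeR adjusted p = 0.0110). Plin2, which coats lipid droplets, had 38.9 and 518 CPM in GFP-negative and 2863 and 1096 CPM in GFP-positive libraries. Its log2 change was -2.83 ± 1.20 (SE, n = 2 per group, edgeR adjusted p = 1.0). Among the 16 alternatives it was called in 1, without GFP-negative replicate 2 (-5.59, edgeR adjusted p = 6.39e-04). For 4 of the 7 genes the 2 GFP-negative values were the lower ones, an order found for 6.63% of all tested genes, and for 0 of the 7 they were the higher ones, against 25.2% of all. A gene at 0 counts in GFP-positive replicate 1, as 11683 of all 17746 symbols were, cannot have the lower order. All 7 genes had counts in that library, so these shares do not compare like with like. The same 4 genes had a lower fit at an unadjusted p under 0.05, against 0.761% of all. At that p 0 of the 7 were higher, against 381 of all 16301 tested genes.

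Lyz1, Lpl and Fabp4 did not follow that order. Lyz1, the second lysozyme gene, known in the mouse from Paneth cells of the gut and also read in type 2 cells, had 7.15 and 69.8 CPM in GFP-negative and 2.83 and 40.4 CPM in GFP-positive libraries. Replicate 2 was high and replicate 1 low in both groups, and the log2 change was 0.83 ± 4.0 (SE, n = 2 per group, edgeR adjusted p = 1.0). Lpl, the lipase that frees fatty acids from circulating lipoproteins, had 16.1 and 24.4 CPM in GFP-negative and 0.133 and 185 CPM in GFP-positive libraries, so the GFP-positive pair lay on either side of the GFP-negative pair. Its log2 change of -2.19 ± 3.44 became 7.23 without GFP-positive replicate 2 (edgeR adjusted p = 0.0363), below the median of 9.95 over all genes in that fit. Fabp4, a fatty acid carrier of fat cells, capillaries and lipid-laden macrophages, had 66 and 0 counts in GFP-negative and 12 and 549 counts in GFP-positive libraries. At 0 counts, 3 counts or 0.045 CPM are the limit of that library, for counting error only. Its log2 change was -3.93 ± 4.68 (SE, n = 2 per group, edgeR adjusted p = 1.0). Capillary cells are another source of Fabp4, and 10 endothelial markers summed to 147 and 157 CPM in GFP-negative and 396 and 80.8 CPM in GFP-positive libraries. Nearly all of the sum in GFP-positive replicate 1 was Pecam1, and 7 of the 10 had 0 counts there, beside 11683 of all 17746 symbols. The part of capillary cells in the Fabp4 level was not tested.

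**Figure D2:**
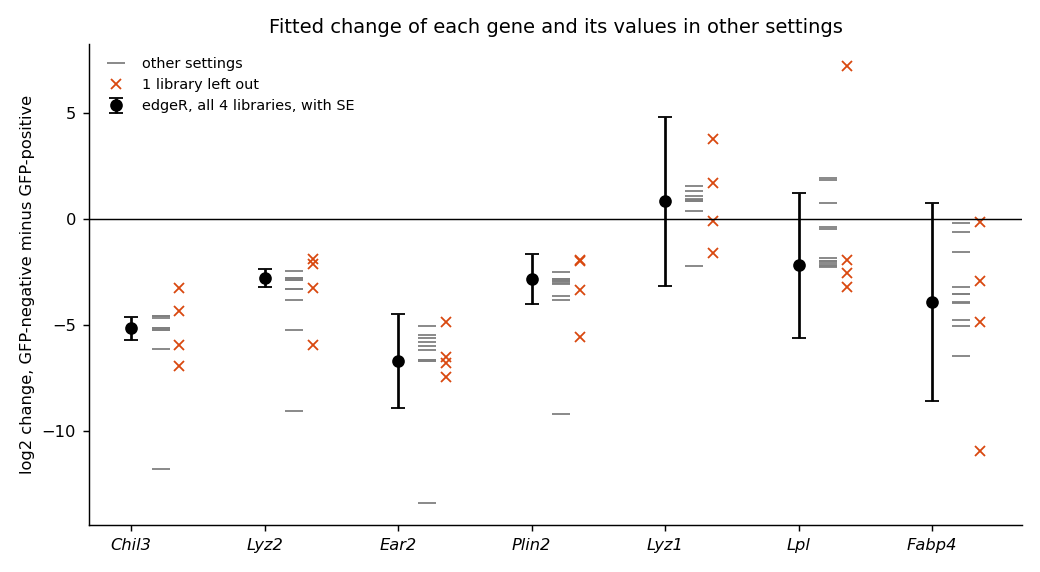
Fitted log2 change of each gene, GFP-negative minus GFP-positive, with its edgeR standard error (black), beside its values in other settings (grey bars) and with 1 library left out (orange crosses). Chil3, Lyz2, Ear2, Plin2 and Fabp4 stay below 0 in every setting drawn, while Lyz1 and Lpl fall on both sides. Fabp4 does so despite its low counts and wide range, -10.97 to -0.13.

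By length-scaled level the order in GFP-positive libraries was Lyz2, Chil3, Ear2, Plin2, Lyz1, Lpl, Fabp4. Ear2 had 1012 and 209.7 FPKM there and Plin2 527 and 253 FPKM, so that these neighbours, like Lyz2 and Chil3, overlapped between libraries. Lyz1 at 1.44 and 25.9 FPKM and Lpl at 0.0057 and 14.3 FPKM overlapped as well. In GFP-negative libraries Plin2, at 15.0 and 122 FPKM, lay above Ear2, at 10.4 and 8.23 FPKM, while Lyz1 at 7.65 and 45.9 FPKM overlapped both. Lpl, at 2.07 and 1.93 FPKM, and Fabp4, at 0.172 and 0 FPKM, closed the order. The length behind the FPKM matters for Lpl, Fabp4 and Plin2. Counts divided by FPKM and library total were compared with the length of all annotated exons merged (GENCODE M21). For the 7 genes they gave 1.12 to 1.17 times that length wherever there were 100 or more counts. The merged length is 10478 bases for Lpl, 4489 for Fabp4 and 3512 for Plin2. Their longest coding transcripts have 4115, 896 and 1888 bases, while for Ear2 both lengths are 719 bases. FPKM therefore set Lpl, Fabp4 and Plin2 lower beside Ear2 than the coding transcripts would. The order of Ear2 and Plin2 given above is that for the merged lengths.

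Lyz1 and Lyz2 lie 5475 bases apart on chromosome 10 (mm10), Lyz2 from 117277331 to 117282321 and Lyz1 from 117287797 to 117292868, both on the minus strand. Their coding sequences are 444 bases each and differ at 22 of them (95.05% identity). The first 90 coding bases are shown from GENCODE M21 because they show how much sequence a read has for telling the copies apart, with the 7 differing bases in capitals.
Lyz2: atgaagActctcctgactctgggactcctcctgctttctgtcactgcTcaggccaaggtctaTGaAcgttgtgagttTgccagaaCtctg
Lyz1: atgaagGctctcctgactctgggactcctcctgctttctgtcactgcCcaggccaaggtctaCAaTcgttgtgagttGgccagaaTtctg
Of all 100-base windows of the Lyz1 transcript, 2.06% occur unchanged in that of Lyz2, and of all 50-base windows 16.06%. How reads shared between genes were handled is not given in the sources used here, so the split of the 2 genes is uncertain to that extent. Lyz1 made up 1.47% (1.37 to 1.57) and 0.802% (0.779 to 0.825) of the summed Lyz1 and Lyz2 counts in GFP-negative libraries. In GFP-positive libraries it made up 0.00655% (0.00536 to 0.00792) and 0.204% (0.196 to 0.212). Brackets are 95% Clopper-Pearson intervals, which cover counting error only, and no interval overlapped another. At the lowest of these shares, the GFP-negative replicate 2 library would have held 37.9 Lyz1 counts, against the 4648 found. Lyz1 was highest where the surfactant gene Sftpc of alveolar type 2 cells was highest, at 2276 CPM in GFP-negative replicate 2. Sftpc was at 82.4 CPM in GFP-negative replicate 1 and at 147 and 192 CPM in GFP-positive libraries. The sum of 13 type 2 markers was 194 and 2564 CPM in GFP-negative and 660.5 and 365 CPM in GFP-positive libraries. Most of the sum in GFP-positive replicate 1 was Scd1, at 513 CPM, a gene also active in liver. In GFP-positive replicate 1, 10 of the 13 had 0 counts, beside 11683 of all 17746 symbols. The part of type 2 cells in the Lyz1 and Lyz2 levels was not tested.

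Chil3 lies on chromosome 3 (mm10) from 106147554 to 106167564, with its close copy Chil4 (Ym2) 33925 bases away. Chil4 had 1 and 2 counts in GFP-negative and 277 and 6 counts in GFP-positive libraries, at most 0.0172% of the summed Chil3 and Chil4 counts, and did not pass the count filter. Ear2 lies on chromosome 14 from 44102654 to 44103534, inside the span of the long noncoding gene Gm49101 on the other strand. The protocol marks no strand, so reads from any exon sequence that these 2 genes share cannot be told apart. Overlap was taken over whole gene spans, introns included, and overlap of exons was not examined. The other 6 genes overlap no annotated gene. Ear1, a ribonuclease gene of the same cluster as Ear2, overlaps other annotated genes, among them the same-strand pseudogenes Ear-ps12 and Ear-ps9. Its counts can hold reads from any exon sequence so shared. Ear1 had 131 and 136 counts in GFP-negative and 10 and 452 counts in GFP-positive libraries. Ear1 was thus 17.3% and 22.3% of the summed Ear1 and Ear2 counts in GFP-negative and 0.0237% and 3.67% in GFP-positive libraries. Of all 50-base windows, 18.46% of the Chil4 transcript occur unchanged in Chil3 and 23.80% of Ear1 in Ear2. At 100 bases these shares are 3.75% and 0.00%. The split of counts within these pairs is uncertain to that extent, as for the lysozyme genes.

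**Figure D3:**
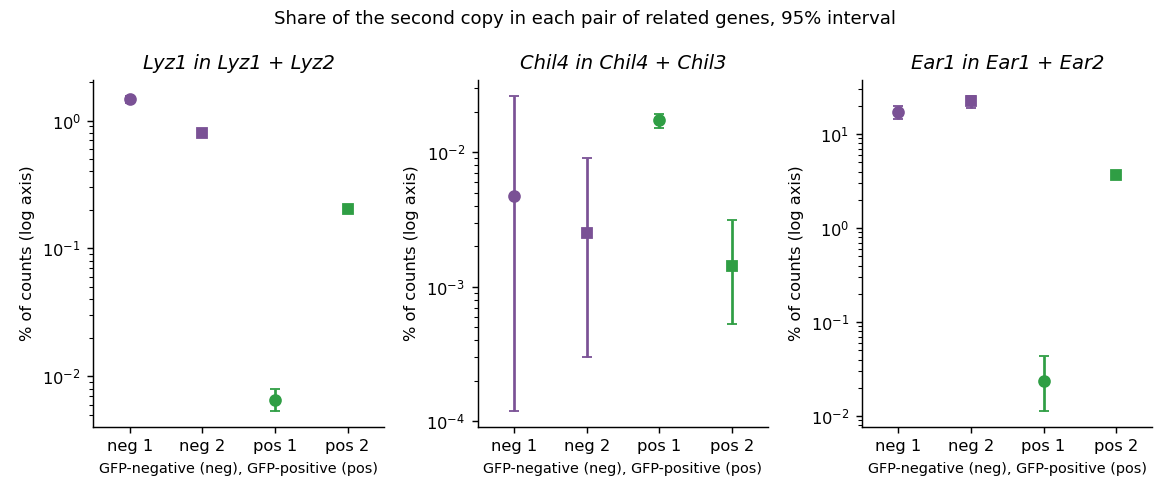
Share of counts of the second copy in 3 pairs of related genes in each library (percent, log axis) with 95% Clopper-Pearson intervals. Lyz1 and Ear1 have their lowest share in GFP-positive replicate 1 (0.00655% and 0.0237%), whereas Chil4 has its highest there (0.0172%).

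Set against macrophage markers of the same library, which needs no scaling between libraries, Lyz2 varied least. Its counts equalled 51.2% and 45.3% of the summed counts of the 29 macrophage and monocyte markers in GFP-negative and 91.5% and 35.2% in GFP-positive libraries, a range of 2.60-fold in which the groups overlapped. Plin2 ranged 3.12-fold, at 4.15% and 2.71% in GFP-negative and 6.07% and 1.95% in GFP-positive libraries. Chil3 ranged 14.4-fold, at 19.9% and 6.33% in GFP-negative and 91.0% and 11.7% in GFP-positive libraries. Ear2 ranged 64.0-fold, at 0.588% and 0.0373% in GFP-negative and 2.39% and 0.330% in GFP-positive libraries. For all 4 of these genes both replicate 1 libraries lay above both replicate 2 libraries, whatever the GFP status. Against the complement genes C1qa, C1qb and C1qc, typical of tissue macrophages, Chil3 was at 122% and 19.0% in GFP-negative and 489.6% and 28.4% in GFP-positive libraries, with the same order. These ratios were chosen after the data were seen and carry no test.

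**Figure D4:**
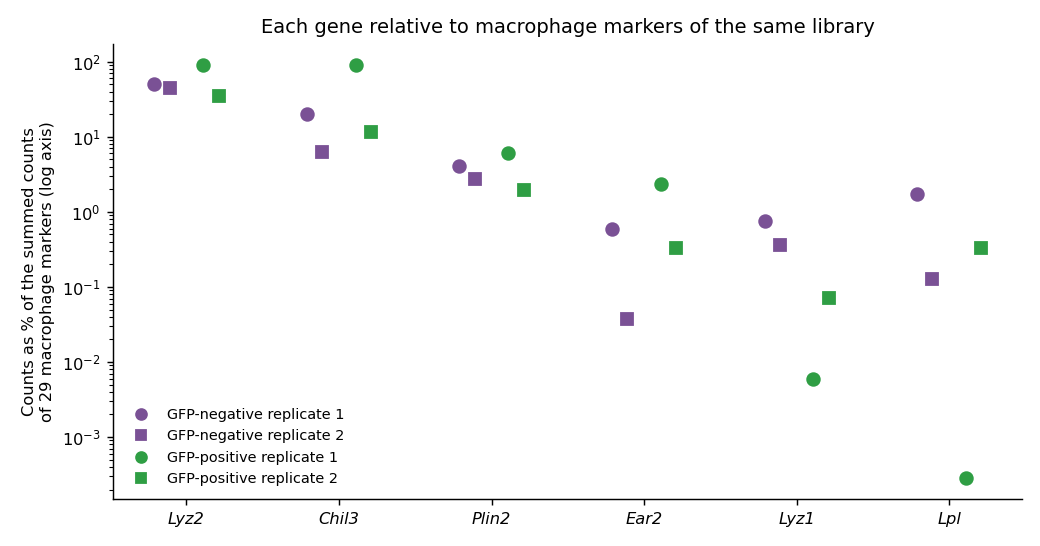
Counts of each gene as a percentage of the summed counts of 29 macrophage and monocyte markers of the same library (log axis), GFP-negative left of GFP-positive within a gene. Lyz2 stays between 35.2% and 91.5% in all 4 libraries, whereas Chil3 runs between 6.33% and 91.0% and is higher in both replicate 1 libraries.

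The genes most like Chil3 over the 4 libraries were Il1rn, Atp6v0d2, P2ry14, Cd300a and Cd40, among 2811 genes with counts in every library and a mean of at least 50 CPM. Likeness was the root mean square difference of log2 CPM after centring each gene on its mean, and lay between 0.28 and 0.37. Il1rn, the antagonist of the interleukin 1 receptor, had 5.52 and 34.1 CPM in GFP-negative and 897 and 123 CPM in GFP-positive libraries. Atp6v0d2, a proton pump subunit read in osteoclasts and alveolar macrophages, had 5.29 and 20.5 CPM in GFP-negative and 814 and 155 CPM in GFP-positive libraries. For Lyz2 the nearest were Lgals3, Ctsh, Bcl2a1d, Lilr4b and Rtp4, at 0.13 to 0.20. Lgals3, the galectin of macrophages and many epithelia, had 46.0 and 873 CPM in GFP-negative and 3840.2 and 2268 CPM in GFP-positive libraries. Ctsh, a cathepsin of macrophages and type 2 cells, had 32.6 and 470 CPM in GFP-negative and 2736 and 1364 CPM in GFP-positive libraries. With 4 libraries many genes share a pattern, and none of these 10 genes was called (edgeR adjusted p = 1.0 for each).

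Further alveolar macrophage genes gave 1 call. Of 21 tested, 1 was called lower and 0 higher, against 0.092% and 0.00613% of all tested genes. At an unadjusted p under 0.05, 4 were lower and 0 higher, against 124 lower and 381 higher of all 16301 tested genes. The called gene was Ctsk, a lysosomal protease. Its levels were 14.7 and 4.07 CPM in GFP-negative and 3663 and 115 CPM in GFP-positive libraries (log2 change -7.65 ± 1.59, SE, n = 2 per group, edgeR adjusted p = 0.00289). Without GFP-positive replicate 1 its change was -3.63 and not called (edgeR adjusted p = 1.0). The median change of the list was -1.97, against 0.91 for all tested genes and -2.83 for the 7 genes above. Plet1, a surface protein found on alveolar macrophages, had 7.52 and 16.2 CPM in GFP-negative and 982 and 111 CPM in GFP-positive libraries and did not pass the test. Cd9, a tetraspanin of many cell types, had 1353 and 445 CPM in GFP-negative and 1736 and 549 CPM in GFP-positive libraries. Siglecf, a surface lectin that defines resident alveolar macrophages and eosinophils, was at 0.476 and 0 CPM in GFP-negative and 0 and 8.52 CPM in GFP-positive libraries, so this defining marker had 0 counts in the library with the most Chil3. In that library 10 of the 22 genes of the list had 0 counts, beside 11683 of all 17746 symbols. In GFP-negative libraries 1 and 4 of the 22 had 0 counts, and in GFP-positive replicate 2 it was 1.

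Upstream of these genes, granulocyte-macrophage colony-stimulating factor acts through its receptor and the nuclear receptor PPARγ to set the alveolar macrophage programme. Of 17 tested genes of this axis 0 were called (1 lower at an unadjusted p under 0.05), and 10 had a fitted change below 0. Of all 16301 tested genes 0.761% were lower at that p, and 5199 had a fitted change below 0. The median log2 change was -0.46, or -0.94 without GFP-positive replicate 1. The GFP-negative values were the lower pair for 4 genes and the higher pair for 4. Of all tested genes 6.63% had the lower order and 25.2% the higher. In GFP-positive replicate 1, 10 of the 18 axis genes in the table had 0 counts, which leaves no lower order for them. Bhlhe40, a repressor that keeps alveolar macrophages renewing, had 372 and 23.7 CPM in GFP-negative and 2687 and 232 CPM in GFP-positive libraries. Spi1, the gene of PU.1, had 12.4 and 179 CPM in GFP-negative and 508 and 494 CPM in GFP-positive libraries, and Cebpb, of a C/EBP factor, had 52.6 and 63.0 against 77.4 and 213 CPM. Pparg itself, singled out here as the centre of the axis after its values were seen, was low, at 10.8 and 6.11 CPM in GFP-negative and 0.107 and 3.95 CPM in GFP-positive libraries.

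The lipid lists gave no call. Of 34 genes of lipid uptake, storage and efflux 0 were called, and the median log2 change was -1.51. At an unadjusted p under 0.05, 4 were lower and 0 higher, against 124 lower and 381 higher of all 16301 tested genes. Hilpda, a lipase inhibitor on droplets, had 21.5 and 48.0 CPM in GFP-negative and 411 and 299 CPM in GFP-positive libraries. Cideb, a droplet protein of the liver, had 0 and 0.661 CPM in GFP-negative and 834 and 0 CPM in GFP-positive libraries, so nearly all of it was in 1 library. Fabp5, the other carrier of macrophages beside Fabp4, had 207 and 199.6 CPM in GFP-negative and 441 and 509 CPM in GFP-positive libraries. Plin3, a relative of Plin2, had 7.50 and 11.1 CPM in GFP-negative and 0 and 56.2 CPM in GFP-positive libraries. In the lipase list of 9 tested genes 0 were called (2 lower at an unadjusted p under 0.05). Their median log2 change was -0.34, or -1.34 without GFP-positive replicate 1. Angptl4, an inhibitor of lipoprotein lipase, had 4.17 and 3.93 CPM in GFP-negative and 1051 and 60.9 CPM in GFP-positive libraries. Lipa, the lysosomal lipase that digests engulfed lipid, had 16.9 and 21.2 CPM in GFP-negative and 1034 and 168 CPM in GFP-positive libraries, and Apoc2, the cofactor of Lpl, had 2.11 and 135.5 against 0.0533 and 88.3 CPM.

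The gene families of the 7 gave no call among the genes tested. The median log2 change was -2.42 for 8 genes of ribonucleases and their inhibitor (1 lower at an unadjusted p under 0.05). It was 1.33 for 6 lipid carriers of the Fabp family (0 at that p) and 0.36 for 4 chitinase-family genes (0 at that p). Among all 16301 tested genes 124 were lower and 381 higher at that p. Without GFP-positive replicate 1 the Fabp-family median was 0.33 and the chitinase-family median turned to -0.64. Rnase4, a secreted ribonuclease, had 7.77 and 103.6 CPM in GFP-negative and 993 and 276 CPM in GFP-positive libraries. Rnh1, the ribonuclease inhibitor, had 97.2 and 334 CPM in GFP-negative and 594 and 409 CPM in GFP-positive libraries, and Rnaset2a had 74.6 and 106 against 350 and 280 CPM. Crabp1, a retinoic acid carrier, had 53.7 and 984 CPM in GFP-negative and 0 and 707 CPM in GFP-positive libraries, and Fabp3 had 1.74 and 40.1 against 0.800 and 8.49 CPM. Chil1, Chia1 and Chid1 had 0 counts in GFP-positive replicate 1 and reached at most 37.3 CPM elsewhere. A further 8 genes of the lysozyme family were not analysed here.

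For 21 of 29 general macrophage and monocyte markers the GFP-negative values were the lower pair, as for Chil3 and Lyz2, against 6.63% of all tested genes. Genes at 0 counts in GFP-positive replicate 1 cannot have that order. These were 5 of the 29, beside 11683 of all 17746 symbols. Of the 29, 27 had a fitted change below 0, against 5199 of all 16301 tested genes. In this list 1 gene was called lower, against 0.092% of all. It was the cathepsin Ctss, at 194 and 2305 CPM in GFP-negative and 12505 and 8943 CPM in GFP-positive libraries (edgeR adjusted p = 0.00312). The median log2 change was -2.39, and -2.32 without GFP-positive replicate 1, where 0 were called. C1qb had 73.3 and 3730 CPM in GFP-negative and 3839 and 12666 CPM in GFP-positive libraries, and the Fc receptor subunit Fcer1g had 52.3 and 2077 against 1545 and 4806 CPM, with the groups overlapping. Among 18 tested scavenger and pattern receptors, the group Marco belongs to, 0 were called (median -2.57). At an unadjusted p under 0.05, 5 were lower and 1 higher, against 124 lower and 381 higher of all 16301 tested genes. The 2 lists share genes, and Cd68, Cd14 and Clec4n belong to both. Cd68, a lysosomal protein of macrophages, had 36.8 and 779 CPM in GFP-negative and 2338 and 2032 CPM in GFP-positive libraries, Cd14, the lipopolysaccharide co-receptor, 38.1 and 342 against 3934 and 1066 CPM, and the lectin Clec4n 5.64 and 121 against 321 and 509 CPM. Ptprc, the CD45 gene, was among the 5 of the 29 markers with 0 counts in GFP-positive replicate 1.

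Other cells that make some of these genes were read by their markers. Neutrophils also carry Lyz2 and Chil3, and their 13 markers in the table summed to 46.7 and 112 CPM in GFP-negative and 194 and 711 CPM in GFP-positive libraries. In GFP-positive replicate 1, which had the most Chil3, 12 of these 13 had 0 counts, beside 11683 of all 17746 symbols. S100a8 supplied all 194 CPM there. In GFP-positive replicate 2, Ltf supplied 503 CPM and S100a9 26.2 CPM. Neutrophil markers had a median log2 change of -1.37, dendritic cell markers of 1.20, type 2 markers of 1.36, endothelial markers of 2.78 and neuroendocrine markers of 1.495, with 0 calls in each of these 5 lists. Without GFP-positive replicate 1 the medians were -2.37 for neutrophil, 0.20 for dendritic, 1.58 for type 2, 1.78 for endothelial and 1.26 for neuroendocrine markers. The counts at an unadjusted p under 0.05 in these 5 lists were 0, 0, 0, 1 and 1, in that order. The endothelial and the neuroendocrine gene were higher in GFP-negative cells. Of all 16301 tested genes 381 were higher and 124 lower at that p. The hepatocyte list had 3 of 6 tested genes called lower (median -8.82, or -1.15 with 0 called without GFP-positive replicate 1). These were Apoa2, Alb and Cyp2e1, an apolipoprotein, serum albumin and a liver cytochrome, at 18132, 5079.9 and 1969.8 CPM in GFP-positive replicate 1 and at most 3.09 CPM elsewhere. Trf, for transferrin, was less tied to that library, at 117 and 525 CPM in GFP-negative and 4603 and 1465 CPM in GFP-positive libraries, and Ttr, for transthyretin, had 23.0 and 318 against 2080.3 and 155 CPM. Dendritic cell markers summed to 115 and 158 CPM in GFP-negative and 0.267 and 356 CPM in GFP-positive libraries, led by Bst2, Ccr7 and Batf3, each at 0 counts in GFP-positive replicate 1. After Sftpc, the leading type 2 genes were Scd1 and Sftpd. Scd1, a desaturase of fat synthesis also active in liver, had 12.2 and 11.9 CPM in GFP-negative and 513 and 2.01 CPM in GFP-positive libraries, and surfactant protein Sftpd had 3.54 and 97.5 against 0 and 73.9 CPM. Among endothelial genes Plvap had 19.7 and 18.9 CPM in GFP-negative and 0.107 and 49.6 CPM in GFP-positive libraries, and Ramp2 had 20.5 and 39.7 against 0 and 5.82 CPM. The tumour genes Calca, Resp18 and Scg5, of peptide hormone secretion, were led by Calca at 2744 and 489 CPM in GFP-negative and 3073 and 349.6 CPM in GFP-positive libraries. Eosinophil and adipocyte markers gave too few genes for a summary, with 1 of 7 and 2 of 9 in the table and 0 called. Lipe and Cidea, the 2 adipocyte genes, reached at most 14.3 CPM. The part of these cells in the levels of the 7 genes was not tested.

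**Figure D5:**
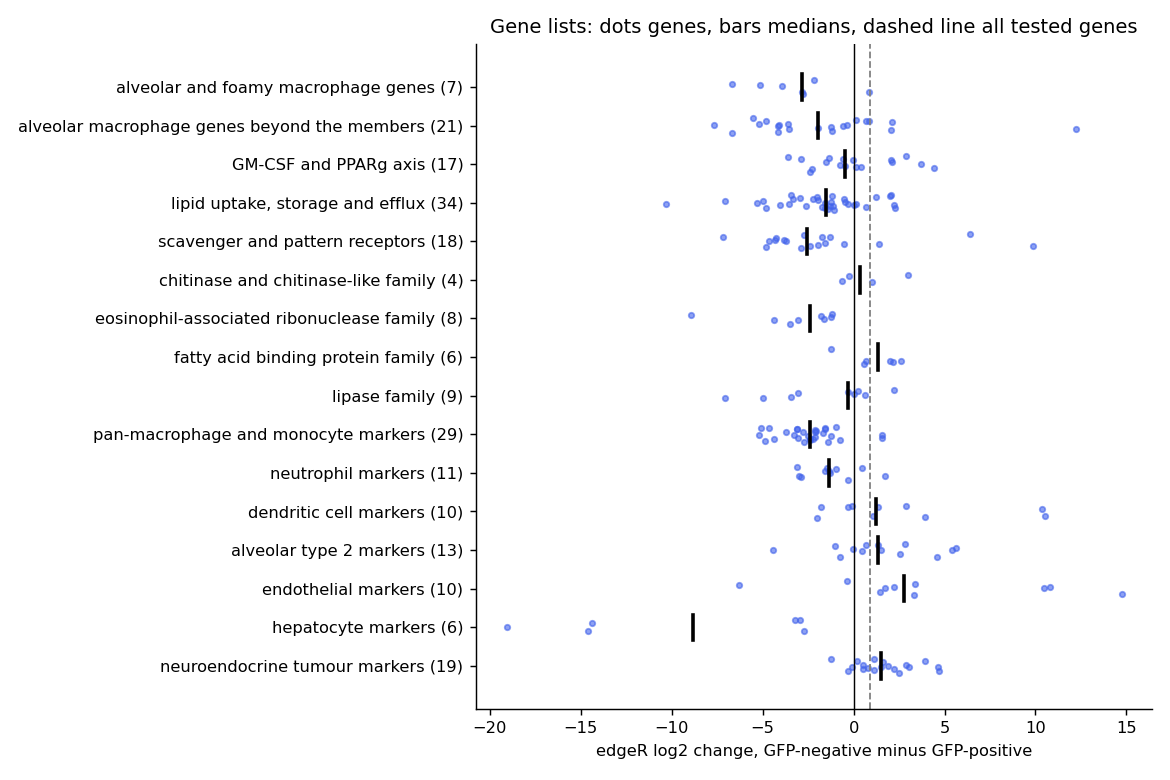
Fitted log2 change of each tested gene (dots), GFP-negative minus GFP-positive, by gene list with the number tested in brackets, list medians (black bars) and the median of all tested genes (dashed line, 0.91). The median of the 7 genes is -2.83 and that of the 29 macrophage and monocyte markers is -2.39, while neuroendocrine markers lie at 1.495.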

How the data were processed

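Full-length cDNA from very little total RNA was made by oligo(dT) priming and template switching, amplified and sequenced in pairs, per the labels' protocols. Whole-number counts and FPKM (scaled by gene length and library total) are the authors' deposited values for every symbol and library. Tools named are HISAT2 2.2.1, cutadapt 1.9, StringTie 2.1.6, edgeR and DESeq2, with build mm10, per the submitters' processing notes. Which program counted, and on which annotation, is not given in the sources used here. Counts carry no molecular identifiers, so amplification error is not covered by the intervals.

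Groups came from the sample descriptions. Counts were filtered with filterByExpr (minimum count 10), scaled by TMM and fitted in R 4.3.3 with edgeR 4.0.16 (glmQLFit, glmQLFTest, group as the only term), with Benjamini-Hochberg adjustment over 16301 genes and a threshold of 0.05. The SE of a change was taken from the change and its moderated F statistic. The fit was also run on simulated counts. These had the same spread for every gene and no library short of symbols, so that run does not bear on the spread seen here. Positions came from GENCODE M21 (mm10) and promoters from RefSeq (GRCm38.p6), where 6 of the 8 genes had an entry.

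The genes, lists and tests were chosen with earlier results of these data known. All 7 genes are named, plus the 3 members of each list with the highest mean FPKM, called members, the paralogues Chil4, Ear1, Fabp5 and Plin3, and the 5 genes most like Chil3 and Lyz2 (prior count 2). Pparg, Siglecf, Ptprc, Epcam and the C1q ratio were added after values were seen. Alternatives were other filters, scalings, tools (DESeq2 1.42.0, limma 3.58.1 on voom values and on log2 FPKM), a replicate block, leaving out each library, and a threshold of 0.1. Leaving out GFP-positive replicate 1 in the list medians was added after seeing the data.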

Additional observations from a re-analysis of the deposited data

How the results depend on the processing

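The edgeR test called 16 genes, 15 of them lower. The count stayed between 14 and 19 under a looser or stricter count minimum, scaling by library totals or by DESeq2's factors, and a threshold of 0.1. It was 5 with only genes counted in all 4 libraries, 63 with DESeq2's Wald test (12 lower and the rest higher, 5 shared with the 16), 4 with limma-voom, and 0 with upper quartile scaling and with limma on log2 FPKM at a pseudocount of 0.1, 1 or 5 (1150, 273, 408 and 506 genes at an unadjusted p under 0.05). Leaving out each library gave 1 to 7601 calls, with 1 without GFP-positive replicate 1, 7601 (419 lower) without GFP-positive replicate 2, and 59 without GFP-negative replicate 2. Of the 7 genes, 2 were called, and 0 with genes counted in all 4 libraries (4 at an unadjusted p under 0.05), upper quartile scaling (1), DESeq2's Wald test (2), limma-voom (1) and limma on FPKM (2 at each pseudocount). With a library left out the number ran between 0 (GFP-positive replicate 1, with 2 at an unadjusted p under 0.05) and 3. Over 16 alternatives Chil3 and Lyz2 were called in 7 each and kept their direction in all, at log2 changes of -11.79 to -3.24 and -9.07 to -1.87.

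The median change of the 7 genes was -2.83, -9.07 with upper quartile scaling, -4.75 with limma-voom, and -5.59 to -1.94 with a library left out. Lyz1 turned to -2.22 with upper quartile scaling and ran between -1.60 and 3.76 with a library left out. Lpl turned to 1.82 with limma-voom and 0.77 on log2 FPKM with a pseudocount of 0.1, and ran between -3.20 and 7.23. As a share of FPKM, Lyz1 was 0.835% and 0.212% in replicate 2 of GFP-negative and GFP-positive libraries. The median of all tested genes was 0.91 with TMM, 1.12 with DESeq2's factors, 0.43 with the upper quartile and 1.33 with library totals. It was -0.06 with only genes counted in all 4 libraries, 3.81 with limma-voom and 1.76 on log2 FPKM with a pseudocount of 0.1. With a library left out it ran between 0.29 and 9.95. Lpl lay below this median in each fit where its sign turned. The cause was not tested.

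Replicate numbers are not stated to pair libraries, and replicate differences of the 2 groups correlated at -0.07 over 16301 genes. With a replicate block edgeR called 21 genes, 12 of them among the 16, with Chil3 and Lyz2 among its calls, and Lpl turned to 1.92, beside a median of 3.92 over all genes.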
